A study of Mus musculus with 8 samples.

Results

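Transcript levels of 10 genes of the p53 pathway and of the CIP/KIP family of cell cycle inhibitors were measured in hearts of Lmna knockout mice: Trp53, Mdm2, Cdkn1a, Cdkn1b, Cdkn1c, Zmat3, Ccng1, Bax, Gdf15 and Sesn1. The genes were taken by symbol from GENCODE M21 and matched to the count tables by Ensembl identifier. All 10 were found among the 141239 features counted in each library, and all 10 passed the filter on low counts. There were 5 RNA sequencing libraries from Lmna-/- hearts into which wild-type LMNA had been brought back with an adeno-associated virus of serotype 9, a vector that reaches heart muscle. These libraries are called AAV9-LMNA (replicates 1 to 5). There were 3 libraries from Lmna-/- hearts with no vector in their labels, named untreated here (replicates 6, 7 and 8). All 8 libraries were thus labelled as from Lmna knockout hearts, of mixed strain and 2 weeks of age. The sources used here do not give the promoter, dose or insert species of the vector. Neither wild-type hearts nor hearts given an empty vector were analysed here, so an effect of LMNA and one of the vector cannot be told apart, and no direction relative to a healthy heart is given.

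The protein p53, encoded by Trp53, is a transcription factor that is stabilised by DNA damage and other stress and that raises the transcription of genes for cell cycle arrest, DNA repair and cell death. Mdm2 encodes the ubiquitin ligase that marks p53 for degradation, and it is itself a p53 target, which closes a feedback loop. Cdkn1a encodes p21, the target through which p53 arrests the cell cycle, and it belongs with Cdkn1b (p27) and Cdkn1c (p57) to the CIP/KIP inhibitors of cyclin-dependent kinases. In the mouse heart, muscle cells leave the cell cycle within weeks of birth, and these inhibitors are known to take part in that exit.

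The libraries held 21439956 to 26492443 counts on features. Lmna itself, the check of the labels, had 393, 227, 325, 312 and 747 CPM (counts scaled to a common library size) in AAV9-LMNA libraries 1 to 5, against 46.4, 68.7 and 32.3 CPM in untreated libraries 6, 7 and 8. Each AAV9-LMNA library was thus above each untreated one. Reads outside all features made up 12.1 to 12.9% in AAV9-LMNA and 16.8 to 24.7% in untreated libraries (exact permutation test, two-sided p = 0.0179, which is the lowest the 56 splits can give, adjusted p = 0.0298 over 5 library measures). The slope of log2 CPM on log2 transcript length ran from -0.083 to -0.046 in AAV9-LMNA and from 0.051 to 0.15 in untreated libraries, with the same p. In untreated libraries 6, 7 and 8 reads outside features made up 24.7, 16.8 and 18.4%, and the slopes were 0.15, 0.051 and 0.11. Library 7 was thus the nearest to AAV9-LMNA in both measures, and library 6 the farthest. The tissue was heart by its markers, with Myh6, the main myosin of mouse heart muscle, at 21300 to 30360 CPM in AAV9-LMNA and 17050 to 33890 CPM in untreated libraries. The untreated libraries were uneven in other cell types. Myl7, an atrial myosin light chain, was at 0.28 to 0.80 CPM in AAV9-LMNA libraries and at 4.51, 1.71 and 308 CPM in untreated libraries 6, 7 and 8, and C1qa, a macrophage gene, was at 73.8 to 98.0 CPM in AAV9-LMNA libraries and at 24.5, 101 and 37.5 CPM in untreated libraries 6, 7 and 8.

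Cdkn1a and Zmat3 fell in AAV9-LMNA hearts, 2.64-fold and 2.19-fold below untreated hearts, while Trp53 and the other targets were not called in either direction (edgeR's quasi-likelihood test, with p adjusted by Benjamini-Hochberg over 26717 features and a threshold of 0.05). Of the 10 genes, 2 were lower, 0 were higher and 8 were not called. At an unadjusted edgeR p under 0.05, 3 were higher, Cdkn1b, Cdkn1c and Bax, and by adjusted p DESeq2 called 3 higher and limma-voom 1. Across all features tested 25.7% were called, and among the 13785 protein-coding genes tested 24.5% were called, 18.4% higher and 6.07% lower. A count of 2 of 10 therefore lay close to the background for calls of either direction. The size of both falls was less common: 0.921% of coding genes had a lower log2 fold change than Cdkn1a and 1.71% had a lower one than Zmat3. Group ranges of CPM did not overlap in 4 of the 10 genes, against 29.9% of all features. In 2 of these, Cdkn1a and Zmat3, the AAV9-LMNA libraries lay below, as in 6.61% of coding genes, and in the other two, Cdkn1b and Cdkn1c, they lay above, as in 23.1% of coding genes. The median log2 fold change was 0.19 over the 10 genes and 0.21 over coding genes.

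**Figure D1:**
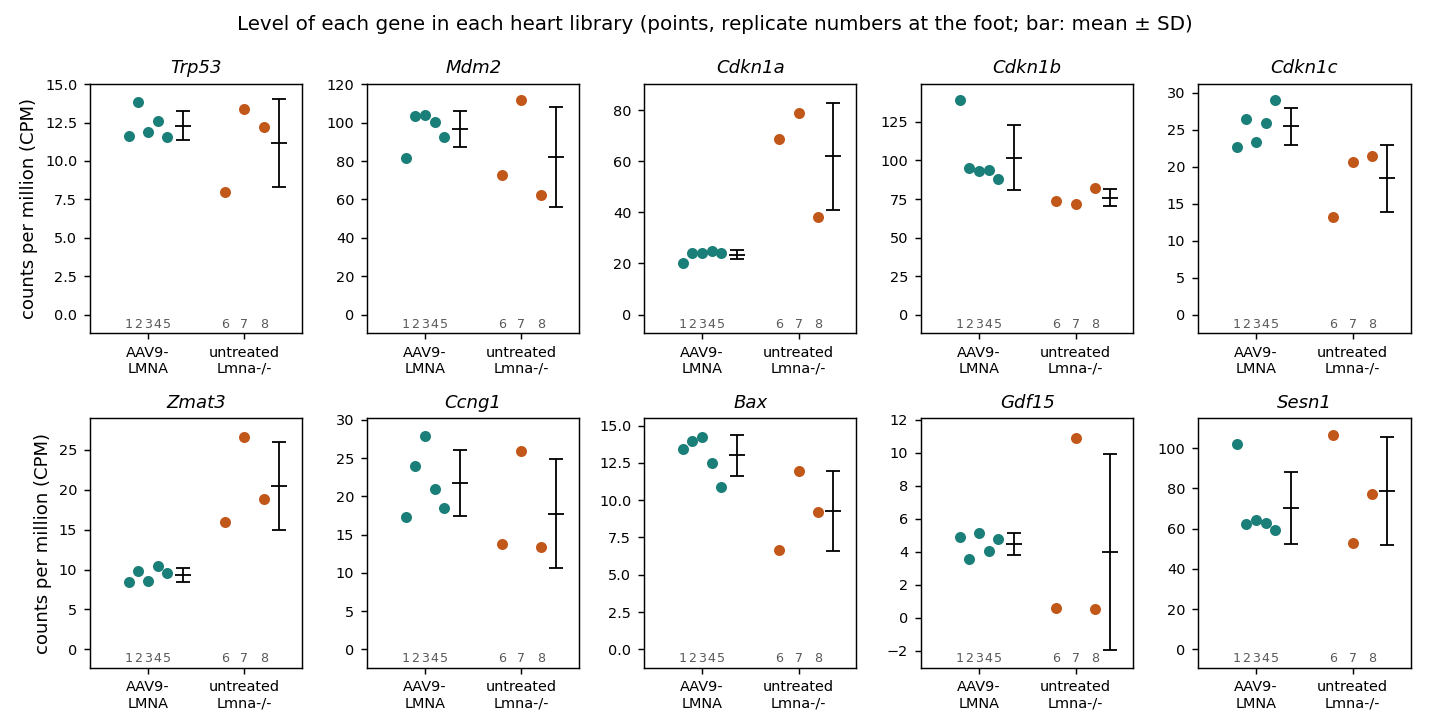
Level of each of the 10 genes in every library, in CPM on TMM-scaled library sizes, AAV9-LMNA libraries left of untreated Lmna-/- libraries in each panel, with replicate numbers at the foot. The AAV9-LMNA points lie below the untreated points for Cdkn1a and Zmat3 and above them for Cdkn1b and Cdkn1c, and for Gdf15 the untreated points spread from 0.54 to 10.9 CPM.

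Trp53 itself (ENSMUSG00000059552, GRCm38 chromosome 11, 69580359 to 69591873, plus strand) had 11.6, 13.8, 11.9, 12.6 and 11.6 CPM in AAV9-LMNA libraries 1 to 5, against 7.96, 13.4 and 12.2 CPM in untreated libraries 6, 7 and 8. Only untreated library 6 stood below the AAV9-LMNA range, and the groups overlapped. AAV9-LMNA over untreated, it had a log2 fold change of 0.14 (standard error, SE, 0.17, edgeR adjusted p = 0.555). These are transcript levels, and the amount or activity of the p53 protein was not measured. Mdm2 (ENSMUSG00000020184, chromosome 10, 117688875 to 117710758, minus strand) had 81.9, 103, 104, 100.5 and 92.7 CPM in AAV9-LMNA libraries 1 to 5, against 72.7, 112 and 62.3 CPM in untreated libraries 6, 7 and 8. Untreated library 7 was the highest of all 8 and untreated libraries 6 and 8 were the lowest, so the AAV9-LMNA values lay inside the untreated range. Its log2 fold change was 0.23 (SE 0.17, edgeR adjusted p = 0.326), and it rested on library 7: without that library Mdm2 was called higher, at 0.53 (edgeR adjusted p = 0.00669), and against library 7 alone it stood at -0.20, short of the threshold (edgeR adjusted p = 0.361).

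Cdkn1a (ENSMUSG00000023067, chromosome 17, 29090976 to 29100727, plus strand), the gene of p21, had the lowest log2 fold change of the 10 genes. It had 20.3, 24.0, 23.9, 24.7 and 24.1 CPM in AAV9-LMNA libraries 1 to 5, against 68.7, 78.7 and 38.3 CPM in untreated libraries 6, 7 and 8. The 5 AAV9-LMNA values lay close together and each was below each untreated value, of which library 8 was the lowest. The means were 23.4 ± 1.75 CPM (SD, n = 5) in AAV9-LMNA and 61.9 ± 21 CPM (SD, n = 3) in untreated hearts, and the log2 fold change was -1.40 (SE 0.19, edgeR adjusted p = 0.00205). In bulk tissue, fewer cells that express a gene and less of its RNA per cell cannot be told apart. Cdkn1a was called lower under all 16 alternative settings tried, with log2 fold changes of -1.74 to -1.18, which includes the fits without untreated library 7 and without untreated libraries 6 and 8. Of the 3 untreated libraries, library 8 was the highest in Myl7 and the lowest in Cdkn1a, and library 7 was the highest in both C1qa and Cdkn1a. Untreated library 6 was the lowest in C1qa, at 24.5 CPM, with Cdkn1a at 68.7 CPM. AAV9-LMNA libraries had C1qa at 73.8 to 98.0 CPM, with Cdkn1a at 20.3 to 24.7 CPM. The part of cell content in the Cdkn1a values was not tested. A gene on the opposite strand, AC167363.2, shares 273 exon bases with Cdkn1a and was not among the features counted, so unstranded counts may include its reads.

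One start of Cdkn1a and that of Ccng1, another long-known p53 target, are shown because both windows hold the letters to which p53 binds, while Cdkn1a was called lower and Ccng1 was not called. A p53 site is made of a pair of decamers, each of 10 bases with a fixed C and G at its core. RefSeq promoter windows (GRCm38.p6), from 250 bases before to 50 bases after a start, were searched on both strands for the p53 decamer by name, in its degenerate form. Windows were held for 8 of the 10 genes, namely all but Zmat3 and Cdkn1c, and made 11 windows in all. Cdkn1a has a second window, chr17:29093519-29093818, which holds no decamer without a mismatch and no pair. Capitals mark the decamers matched.
Cdkn1a, chr17:29090729-29091028, plus strand: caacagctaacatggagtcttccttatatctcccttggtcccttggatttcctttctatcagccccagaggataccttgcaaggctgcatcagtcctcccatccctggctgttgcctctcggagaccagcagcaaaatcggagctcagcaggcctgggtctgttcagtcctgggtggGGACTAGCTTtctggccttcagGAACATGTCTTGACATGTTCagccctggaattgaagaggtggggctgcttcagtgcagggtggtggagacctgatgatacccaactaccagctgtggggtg
Ccng1, chr11:40755237-40755536, minus strand: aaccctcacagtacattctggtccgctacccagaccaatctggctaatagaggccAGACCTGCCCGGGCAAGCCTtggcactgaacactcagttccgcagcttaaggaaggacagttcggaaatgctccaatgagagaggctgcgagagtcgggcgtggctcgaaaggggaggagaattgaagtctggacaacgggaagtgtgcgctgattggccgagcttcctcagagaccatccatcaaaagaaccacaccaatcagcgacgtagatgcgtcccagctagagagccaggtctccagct
In the Cdkn1a window, the site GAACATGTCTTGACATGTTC started 51 bases before the start and had 1 mismatch to the paired decamers. Its first decamer was also the second decamer of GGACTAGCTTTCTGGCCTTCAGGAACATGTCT, which started 73 bases before the start and had 0 mismatches and a spacer of 12 bases, so the matches overlap. In the Ccng1 window, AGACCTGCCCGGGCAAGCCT started 195 bases before the start and had 1 mismatch. A pair of decamers with a spacer of at most 13 bases and at most 1 mismatch was found in 2 of the 11 windows, and in 205 of 32817 windows of all genes, or 0.625%. A decamer with no mismatch was found in 6 of the 11 windows, against 8.36% of all windows. Many p53 sites lie farther from the start than these windows reach, and a match is a description of the letters alone.

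Cdkn1b (ENSMUSG00000003031, chromosome 6, 134920401 to 134925513, plus strand), which encodes p27, had 139, 95.1, 93.0, 93.6 and 87.7 CPM in AAV9-LMNA libraries 1 to 5, against 73.6, 71.9 and 82.1 CPM in untreated libraries 6, 7 and 8. Each AAV9-LMNA library was above each untreated library, and AAV9-LMNA library 1 stood far above the rest. Its log2 fold change was 0.42 (SE 0.15, edgeR adjusted p = 0.0559), just short of the threshold. It was called with RLE size factors (edgeR adjusted p = 0.0465), without a filter on low counts (edgeR adjusted p = 0.00156) and by DESeq2 (adjusted p = 0.0386). Cdkn1c (ENSMUSG00000037664, chromosome 7, 143458339 to 143461050, minus strand), which encodes p57 and is imprinted in the mouse, had 22.7, 26.4, 23.3, 25.98 and 29.0 CPM in AAV9-LMNA libraries 1 to 5, against 13.2, 20.6 and 21.4 CPM in untreated libraries 6, 7 and 8. The groups did not overlap here either, although AAV9-LMNA library 1 and untreated library 8 differed little. Its log2 fold change was 0.47 (SE 0.16, edgeR adjusted p = 0.0537), and 6 of the 16 alternatives called it higher. Both values were smaller once the scaling of the libraries was changed as described below: with the length and GC correction the log2 fold changes were 0.19 for Cdkn1b and 0.14 for Cdkn1c, and neither was called.

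By group mean, the 3 CIP/KIP transcripts also stood in another order of level in each group, although untreated library 8 did not share the untreated order. Per kilobase of exon, Cdkn1a was in sixth place of the 10 genes in AAV9-LMNA hearts, at 6.59 ± 0.494 CPM per kb (SD, n = 5), and in second place in untreated hearts, at 17.4 ± 5.92 CPM per kb (SD, n = 3). Cdkn1b led in AAV9-LMNA hearts at 22.4 ± 4.65 CPM per kb (SD, n = 5) and was at 16.7 ± 1.19 CPM per kb (SD, n = 3) in untreated hearts. Of the summed CPM per kb of the 3 inhibitors, Cdkn1a took 12.1, 16.6, 17.5, 17.3 and 16.9% in AAV9-LMNA libraries 1 to 5, against 46.0, 46.1 and 27.4% in untreated libraries 6, 7 and 8. The shares did not overlap, and untreated library 8 was the nearest to the AAV9-LMNA libraries. In library 8 Cdkn1b led, at 45.9%, as in each AAV9-LMNA library. Cdkn1c shares 625 of its 2039 exon bases with Gm44732 and Bax shares 192 of 1576 with Gm45808, both counted features with 0 counts. Reads on these bases may have stayed out as ambiguous, so the levels of Cdkn1c and Bax per kilobase may be too low. The shares of Cdkn1a and Cdkn1b may then be too high.

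**Figure D2:**
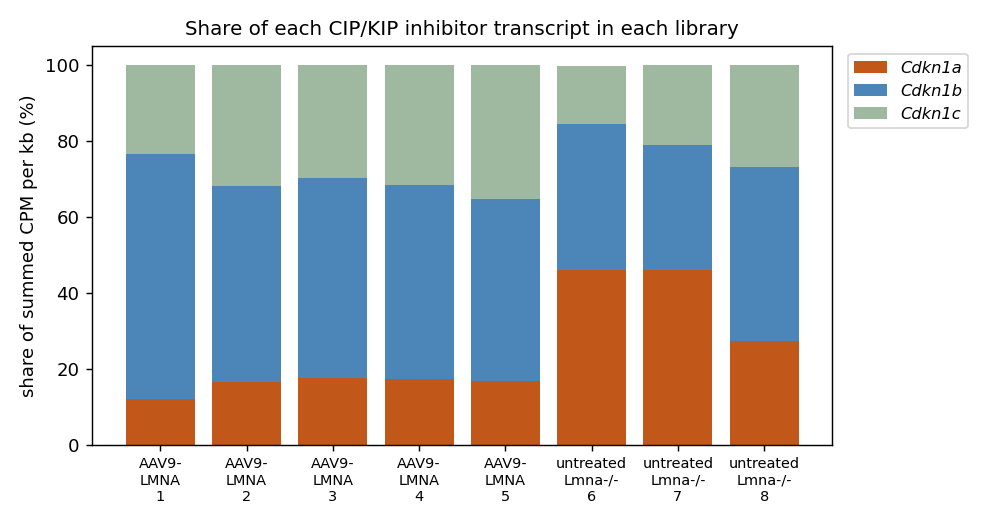
Share of Cdkn1a, Cdkn1b and Cdkn1c in their summed level (CPM per kb of exon) in each library, as stacked bars in percent, with the 5 AAV9-LMNA libraries left of the 3 untreated Lmna-/- libraries. Cdkn1a takes 12.1 to 17.5% in AAV9-LMNA libraries and 27.4 to 46.1% in untreated libraries.

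Zmat3 (ENSMUSG00000027663, chromosome 3, 32334792 to 32366014, minus strand), a p53 target that encodes an RNA-binding zinc finger protein, was the other gene that fell. It had 8.41, 9.81, 8.54, 10.4 and 9.60 CPM in AAV9-LMNA libraries 1 to 5, against 15.9, 26.7 and 18.8 CPM in untreated libraries 6, 7 and 8. Each AAV9-LMNA library was below each untreated one, and untreated library 7 was the highest. The means were 9.36 ± 0.866 CPM (SD, n = 5) in AAV9-LMNA and 20.5 ± 5.55 CPM (SD, n = 3) in untreated hearts, and the log2 fold change was -1.13 (SE 0.17, edgeR adjusted p = 0.0027). It was called lower under all 16 alternatives, with log2 fold changes of -1.50 to -0.88. Zmat3 has the longest exon length of the 10 genes, 11435 bases, and untreated libraries held relatively more counts on long transcripts. The value with each library corrected for length and GC therefore matters here. It was -1.06 and called, against -1.31 with the same Ensembl features alone and no such correction. Per kilobase, Zmat3 was the lowest of the 10 genes in both groups.

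Ccng1 (ENSMUSG00000020326, chromosome 11, 40748552 to 40755311, minus strand), which encodes cyclin G1, had 17.3, 24.0, 27.9, 21.0 and 18.5 CPM in AAV9-LMNA libraries 1 to 5, against 13.8, 25.9 and 13.4 CPM in untreated libraries 6, 7 and 8. As with Mdm2, untreated library 7 reached the AAV9-LMNA range and untreated libraries 6 and 8 were below it. Over all libraries the log2 fold change was 0.29 (SE 0.24, edgeR adjusted p = 0.362). Without untreated library 7 it was 0.69 and called higher (edgeR adjusted p = 0.014), and without untreated libraries 6 and 8 it stood at -0.24, short of the threshold (edgeR adjusted p = 0.551). Bax (ENSMUSG00000003873, chromosome 7, 45461697 to 45466898, minus strand), which encodes a protein that opens the outer mitochondrial membrane in cell death, had 13.5, 13.9, 14.2, 12.5 and 10.9 CPM in AAV9-LMNA libraries 1 to 5, against 6.64, 11.98 and 9.22 CPM in untreated libraries 6, 7 and 8. The ranges overlapped only through untreated library 7, which was above AAV9-LMNA library 5. The log2 fold change of Bax was 0.49 (SE 0.19, edgeR adjusted p = 0.0746), and it was 0.73 and called higher without untreated library 7 (edgeR adjusted p = 0.00939).

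Gdf15 (ENSMUSG00000038508, chromosome 8, 70629393 to 70632456, minus strand), which encodes a secreted stress hormone and is switched on by p53 and by the integrated stress response, was decided by 1 library. It had 4.91, 3.56, 5.12, 4.04 and 4.76 CPM in AAV9-LMNA libraries 1 to 5, against 0.62, 10.9 and 0.54 CPM in untreated libraries 6, 7 and 8, where it rested on 15, 255 and 12 counts. Untreated library 7 was above every AAV9-LMNA library and untreated libraries 6 and 8 were below every one. The log2 fold change over all libraries was 0.16 (SE 0.86, edgeR adjusted p = 0.907), limma-voom gave 1.48 (adjusted p = 0.183), and DESeq2 gave no adjusted p. Without untreated library 7 Gdf15 was called higher, at 2.95 (edgeR adjusted p = 0.00019), and against library 7 alone it was called lower, at -1.27 (edgeR adjusted p = 0.0042). Sesn1 (ENSMUSG00000038332, chromosome 10, 41809935 to 41908424, plus strand), which encodes sestrin 1, a stress-induced inhibitor of the growth kinase mTORC1, had 102, 62.1, 64.3, 62.8 and 59.4 CPM in AAV9-LMNA libraries 1 to 5, against 107, 53 and 77.1 CPM in untreated libraries 6, 7 and 8. AAV9-LMNA library 1 and untreated library 6 were high, and the groups overlapped. With a log2 fold change of -0.17 (SE 0.24, edgeR adjusted p = 0.615), Sesn1 was not called, and it was not called under any of the 16 alternatives.

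Untreated library 7 thus held the highest of the 3 untreated values in 7 of the 10 genes, in 27 of 39 other p53 target genes (69.2%) and in 6095 of 13785 coding genes (44.2%). It was also the highest in 9 of 9 macrophage markers, whose summed level was 587 to 662 CPM in AAV9-LMNA and 189 to 725 CPM in untreated libraries. Atrial markers summed to 90.5 to 206 CPM in AAV9-LMNA and 101 to 1139 CPM in untreated libraries, and 4 of 7 tested were lower, with Bmp10 and Sln at or near 0 in AAV9-LMNA libraries. Of the other marker lists, 3 of 8 endothelial, 3 of 10 ventricular and 1 of 5 lymphocyte genes were higher, beside 18.4% of coding genes, and 0 fibroblast, macrophage, erythroid or smooth muscle genes were called. With Ensembl features alone or the length and GC correction, 0 endothelial, ventricular or lymphocyte markers were called. Fibroblast content was uneven although none of its markers was called. Their summed level was 4607 to 7506 CPM in AAV9-LMNA and 1717 to 7077 CPM in untreated libraries, and every fibroblast marker was at its lowest in untreated library 6. Library 7 was also the untreated library nearest to AAV9-LMNA in reads outside features and in length slope. The parts of cell content and of these library measures in the values were not tested. The count of the 10 genes called followed the same library. It was 7 without untreated library 7, where 35.6% of features were called: Mdm2, Cdkn1c, Ccng1, Bax and Gdf15 were higher, and Cdkn1a and Zmat3 were lower. Without untreated libraries 6 and 8 it was 3, with Gdf15 as the third lower gene, where 7.17% of features were called, and the lone library 7 was assumed to vary as the AAV9-LMNA libraries do. Without untreated library 8 the count was 3 (background 18.4%).

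The scaling also moved the values. Scaling Ensembl features alone shifted the median log2 fold change of shared features by -0.19, and the length and GC correction, which was run on Ensembl features alone as well, shifted it by -0.22 in all. In both, Cdkn1a and Zmat3 were lower and the other 8 genes were not called, with 12.9% and 8.66% of features called. Trp53 turned to -0.04 and -0.08 there, and Gdf15 to -0.11 under the correction. Settings that raised the count of called genes did so through Cdkn1b, Cdkn1c and Bax: 4 of 10 were called with RLE size factors (26.2% of features), 5 without a filter on low counts (11.7%), 5 with DESeq2 (30.6%) and 3 with limma-voom (25.8%). These shares are over all features, and without the filter 18043 of the 71049 features were coding genes.

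**Figure D3:**
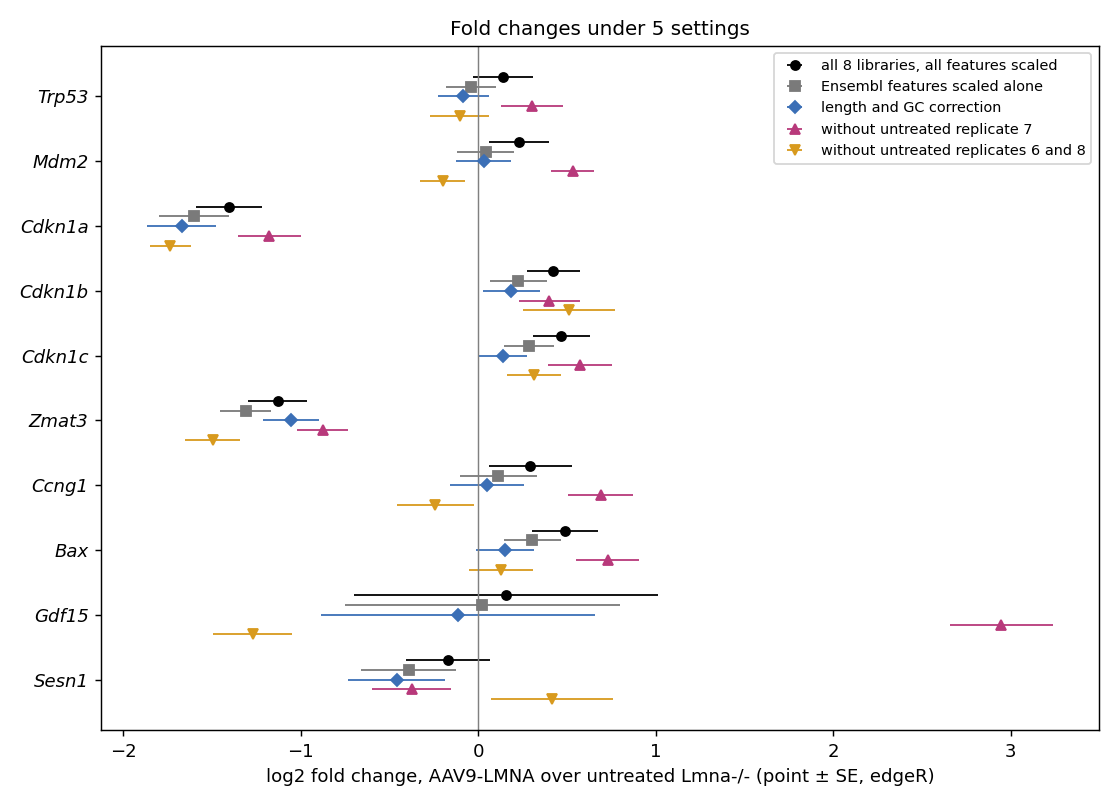
Log2 fold change of each of the 10 genes, AAV9-LMNA over untreated Lmna-/- (point) with its SE (line), under 5 settings of the edgeR fit: all libraries, Ensembl features scaled alone, the length and GC correction, without untreated replicate 7, and without untreated replicates 6 and 8. Cdkn1a and Zmat3 lie below 0 in all 5, and Gdf15 runs from -1.27 to 2.95.

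Of 39 other p53 target genes, 4 were higher in AAV9-LMNA hearts, 1 was lower and 34 were not called. Among coding genes tested, 18.4% were higher and 6.07% lower, so the list held no excess of calls. The median log2 fold change of the 39 genes was 0.33, beside 0.21 over coding genes. With Ensembl features alone it was 0.16, beside 0.02, and with the length and GC correction 0.08, beside 0.03. Without untreated libraries 6 and 8 it was -0.12, beside 0.15 over coding genes. The count called moved with the setting. It was 21 without untreated library 7, where 35.6% of features were called. Without a filter on low counts it was 12, where 11.7% of features were called. Both shares are over all features, and without the filter 18043 of the 71049 features were coding genes. Fdxr, which encodes the mitochondrial ferredoxin reductase, had 10.98 to 12.7 CPM in AAV9-LMNA and 6.36 to 6.87 CPM in untreated libraries (log2 fold change 0.81, SE 0.13, edgeR adjusted p = 0.00374) and was called higher under all 16 alternatives. Gadd45a, a growth arrest and DNA repair gene, had 10.1 to 13.2 CPM in AAV9-LMNA and 5.13 to 7.76 CPM in untreated libraries (log2 fold change 0.76, SE 0.18, edgeR adjusted p = 0.0125). Ak1, an adenylate kinase of muscle, had 672 to 777 CPM in AAV9-LMNA and 486 to 537 CPM in untreated libraries (log2 fold change 0.47, SE 0.09, edgeR adjusted p = 0.00551). The fourth, Plk3, a stress-responsive polo-like kinase, overlapped between groups and shares exon bases with Tctex1d4 (log2 fold change 0.92, SE 0.30, edgeR adjusted p = 0.0459). The lower gene was Ddit4, an inhibitor of mTORC1 that is also induced by glucocorticoids and hypoxia, with 65.5 to 80.0 CPM in AAV9-LMNA libraries and 155, 92.5 and 84.4 CPM in untreated libraries 6, 7 and 8 (log2 fold change -0.63, SE 0.18, edgeR adjusted p = 0.0262). Ak1 was not called with Ensembl features alone or with the length and GC correction. Gadd45a was not called with the correction or without untreated libraries 6 and 8. The latter fit left 1 untreated library and put Gadd45a at 0.57. Ddit4 was not called in 5 of 16 alternatives. Plk3 kept its call in only 6 of 16, with log2 fold changes of 0.35 to 1.34. Cdkn1a and Zmat3 had the lowest log2 fold changes of all the p53 targets plotted. Bbc3, which encodes the cell death protein PUMA, was at 0.63 (SE 0.26, edgeR adjusted p = 0.0959), and Fas, a death receptor gene, was at -0.10 (SE 0.12, edgeR adjusted p = 0.551). Those values and that of Plk3 were picked out after they were seen.

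**Figure D4:**
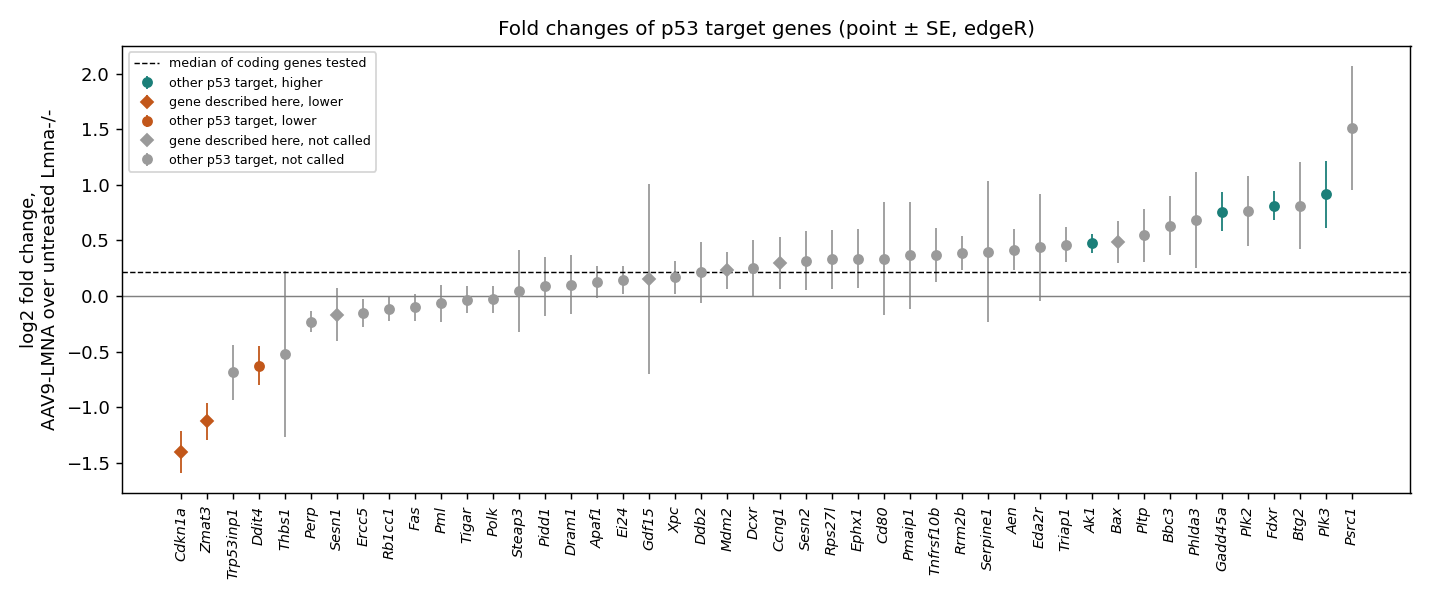
Log2 fold change, AAV9-LMNA over untreated Lmna-/- (point) with its SE (line), of the p53 target genes among the 10 genes (diamonds) and of 39 other p53 targets (circles), ordered by value, with called genes in colour and the median of coding genes, 0.21, as a dashed line. Cdkn1a and Zmat3 stand at the low end and Fdxr, Gadd45a, Ak1 and Plk3 are the called genes above 0.

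Among regulators and cofactors of p53, 17 genes were tested, and 1 fell and 0 rose, beside 6.07% of coding genes lower and 18.4% higher. The gene that fell was Hipk2, a kinase that phosphorylates p53 and is known to favour its activity. It had 72.7, 67.6, 65.8, 73.5 and 54.0 CPM in AAV9-LMNA libraries 1 to 5, against 150, 161 and 148 CPM in untreated libraries 6, 7 and 8. The groups stood far apart, with little spread within the untreated libraries. The log2 fold change was -1.20 (SE 0.11, edgeR adjusted p = 0.000229), and Hipk2 was called lower under all 16 alternatives. The median of the 17 genes was 0.04.

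The counts for the kinases on which the CIP/KIP inhibitors act, and for other cell cycle genes, stand beside a background of 18.4% of coding genes higher and 6.07% lower, and all 3 lists lie near or below it. Of 12 tested CDK inhibitors and pocket proteins outside the CIP/KIP genes, 2 rose and 0 fell: Btg1, an antiproliferative gene (log2 fold change 0.44, edgeR adjusted p = 0.0158), and Ccng2, the gene of cyclin G2 (0.45, edgeR adjusted p = 0.0265). Of 18 G1 cyclins, CDKs and E2F factors, 3 rose and 0 fell. They were Cdk4, the kinase partner of D cyclins (0.51, edgeR adjusted p = 0.0166), Cdk2, the main kinase bound by p21 and p27 (0.37, edgeR adjusted p = 0.0304), and Ccne1, the gene of cyclin E1 (1.37, edgeR adjusted p = 0.0414). Cdk4 had 55.8 to 66.5 CPM in AAV9-LMNA and 33.6 to 48.0 CPM in untreated libraries. Of 19 G2 and M phase genes, 2 rose and 0 fell, the spindle checkpoint kinase gene Bub1b (1.59, edgeR adjusted p = 0.0312) and the mitotic kinase gene Cdk1 (1.51, edgeR adjusted p = 0.0364). Cdk1 was low throughout, with 1.82 to 4.41 CPM in AAV9-LMNA libraries and 0.53, 2.09 and 0.59 CPM in untreated libraries 6, 7 and 8. None of these 7 genes was called with Ensembl features scaled alone or with the length and GC correction. Without untreated libraries 6 and 8, which left 1 untreated library, the 7 log2 fold changes were 0.31 to 0.79. In that fit Cdk1 went from 1.51 to 0.56, Ccne1 from 1.37 to 0.45 and Bub1b from 1.59 to 0.79. Cdk4 went from 0.51 to 0.38 and Btg1 from 0.44 to 0.31. Cdk2, by contrast, went from 0.37 to 0.45 and Ccng2 from 0.45 to 0.52. The 7 genes were not called there, and neither was Lmna, at 2.56 with an SE of 0.88. Cdk4 shares exon bases with Tspan31 and Cdk2 with Pmel, and unstranded counts do not tell such reads apart.

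Coding genes whose log2 CPM was most like that of Cdkn1a over the 8 libraries, of 11861 whose mean log2 CPM was 1 or more, were Hivep3 (Pearson r = 0.98), Slc41a2 (r = 0.98) and Clec16a (r = 0.98). Such a likeness over 8 libraries rests mainly on the difference between the groups and is given as a description. Hivep3, the gene of a zinc finger transcription factor, had 5.84 to 6.07 CPM in AAV9-LMNA libraries and 11.1, 11.3 and 8.94 CPM in untreated libraries 6, 7 and 8, so that untreated library 8 was again the nearest to the AAV9-LMNA libraries. Clec16a, known for its part in mitophagy, had 39.5 to 46.5 CPM in AAV9-LMNA libraries and 68.8, 67.6 and 56.7 CPM in untreated libraries 6, 7 and 8. Among the 10 genes, the correlation of Cdkn1a with Zmat3 was 0.91 over the 8 libraries and 0.40 over deviations from the group means. Over those deviations, the correlations of Cdkn1a with the other genes ran from -0.51 with Cdkn1b to 0.81 with Mdm2. Mdm2 and Ccng1 correlated at 0.95 over the 8 libraries and 0.93 over deviations. Untreated library 7 was above untreated libraries 6 and 8 in both of them.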

How the data were processed

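Bulk heart RNA was sequenced in 8 libraries, with miRNeasy extraction and Illumina TruSeq libraries, per the labels' protocols. The deposited values are raw read counts per gene, 1 table per library, counted without strand over 53465 Ensembl and 87774 NONCODE features. The submitters' processing notes name TopHat2, HTSeq, limma and edgeR and the builds GRCm38 and mm10, with no versions or roles. Reads that overlap more than 1 feature were 21.0 to 26.4% and stayed out of the counts, as did the 5 summary lines of each table. Symbols, coordinates and exon lengths came from GENCODE M21 (GRCm38), which matched 53360 Ensembl identifiers. Overlaps with NONCODE features were not checked.

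Features were filtered with edgeR's filterByExpr, scaled by TMM and tested with edgeR 4.0.16 (R 4.3.3, robust quasi-likelihood, group as the only term) with Benjamini-Hochberg adjustment over 26717 features at 0.05. Each log2 fold change sets AAV9-LMNA over untreated, and an SE is the log2 fold change divided by the square root of F. The alternatives were RLE scaling, DESeq2 1.42.0, limma-voom (limma 3.58.1), other filters, Ensembl features alone, a loess correction for length and GC on Ensembl features alone (span 0.5), and libraries left out. The labels do not say that each library came from a separate animal, and the spread behind the p-values may be technical. Library measures were compared over all 56 splits. On simulated counts of 25845 features for this comparison, 79% of 62 genes changed 4-fold, 31.2% of 64 changed 2-fold and 3.23% of 62 changed 1.5-fold were recovered, and 6 of 77 calls were wrong.

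The 10 genes and the gene lists were chosen with earlier results of these data known. Named were the 10 genes, Lmna, up to 4 called genes of each list by smallest p, and the 4 coding genes most correlated with Cdkn1a, of which 1 is not reported here; the marker genes Myh6, Myl7 and C1qa were picked from their lists after the values were seen.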

Additional observations from a re-analysis of the deposited data

Results flagged for a closer look

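AAV9-LMNA library 1 stood apart from the other 4 libraries of its group in 3 of 15 sets of values checked for a far sample, a rule that flags about 1 in 20 sets by chance. For Cdkn1b it was the highest, at 139.3 CPM, with its gap to the next library making up 0.856 of the group's range. For Sesn1 it was the highest, at 102.3 CPM (0.886 of the range). For Cdkn1a it was the lowest, at 20.32 CPM (0.831 of the range). Without this library Cdkn1a was lower and Cdkn1b and Sesn1 were not called.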

How the results depend on the processing

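Cdkn1a and Zmat3 were lower under all 16 alternatives. Features called were 6858, against 1967 with Ensembl features alone, 1320 with the length and GC correction and 2143 without untreated libraries 6 and 8, and ran from 4216 to 10033 with 1 library left out. Of the 10 genes, 4 were called with RLE size factors, 5 without a filter, 5 with DESeq2, and 2 to 7 with 1 library left out. Of the 39 other p53 targets, 5 were called, against 12 without a filter, 9 with DESeq2, 3 with the length and GC correction, 3 without untreated libraries 6 and 8, and 3 to 21 with 1 library left out. The direction turned for 5 of the genes not called. Trp53 was at -0.042 with Ensembl features alone, -0.083 with the correction and -0.10 without untreated libraries 6 and 8, and ran from -0.045 to 0.30 with 1 library left out. Gdf15 was at -0.11 with the correction and -1.27 without untreated libraries 6 and 8, and ran from -0.35 to 2.95 with 1 library left out. Sesn1 ran from -0.37 to 0.12 with 1 library left out, and was at 0.42 without untreated libraries 6 and 8, where Mdm2 was at -0.20 and Ccng1 at -0.24. The cause was not tested. A gene that was not called may still differ between the groups. The simulated counts do not give the share missed here, because far fewer features changed in them and 77 were called, against 6858. No paired analysis was possible because the groups share no replicate number.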

Other observations

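Genes of cell death and of stress responses that share targets with p53 were mixed. Of 17 BCL2 family genes tested, 1 rose and 1 fell in AAV9-LMNA hearts. Among coding genes 18.4% were higher and 6.07% lower, which is the background for each count given here. Bak1, the partner of Bax in opening the mitochondrial outer membrane, had 27.0 to 34.8 CPM in AAV9-LMNA and 19.2 to 24.5 CPM in untreated libraries (log2 fold change 0.56, SE 0.13, edgeR adjusted p = 0.0116), and shares exon bases with Ggnbp1. Bcl2l1, the gene of the survival protein BCL-XL, had 60.8 to 78.5 CPM in AAV9-LMNA and 83.2 to 111 CPM in untreated libraries (log2 fold change -0.46, SE 0.12, edgeR adjusted p = 0.0192). Neither was called without untreated libraries 6 and 8, which left 1 untreated library. The log2 fold changes there were 0.37 for Bak1 and -0.27 for Bcl2l1. Bak1 was also not called with Ensembl features alone or with the length and GC correction, and Bcl2l1 not without AAV9-LMNA library 2 or without untreated library 6.

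Of 16 tested genes of the ATF4 and CHOP stress response, 1 rose, Shmt2, a mitochondrial enzyme of serine metabolism (log2 fold change 0.31, edgeR adjusted p = 0.0232), and 1 fell, Ddit4, which is also on the list of other p53 targets. Of 15 FOXO factors and targets, 1 rose, Ccng2, and 1 fell, Foxo1 itself, with 6.31 to 9.02 CPM in AAV9-LMNA and 9.94 to 15.6 CPM in untreated libraries (log2 fold change -0.60, SE 0.18, edgeR adjusted p = 0.034). Shmt2 kept its call in 8 of 16 alternatives and Foxo1 in 9. The median log2 fold changes were 0.39 for the stress response list and 0.01 for the FOXO list, beside 0.21 over coding genes.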
